A study of Homo sapiens with 4 samples.

Results

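The 5'UTR is the stretch of a messenger RNA between its cap and the start codon of the main reading frame. The cytidines described here are those that the deposited tables of the study label as lying in a 5'UTR. They number 1765 of 17862 listed positions when both tables are merged, with 801 of 8112 in the table of untreated cells and 1169 of 11735 in that of cells given TGF-β1. They lay in 1257 genes. The choice used the segment label alone and no measured value.

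All samples came from LX-2, an established line of human hepatic stellate cells, labelled wild type. The untreated group and the group given human recombinant TGF-β1 at 5 ng/ml for 24 h held 2 libraries each, described as biological replicates, and both were grown in medium with fetal bovine serum. The study asked how N4-acetylcytidine (ac4C) in their RNA differs after TGF-β1. No library is labelled as made without NaBH4 or without the acetyltransferase NAT10, so whether a listed C was acetylated was not tested here.

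NAT10 acetylates cytidine in ribosomal RNA, transfer RNA and messenger RNA. Sodium borohydride (NaBH4) reduces ac4C, and reverse transcriptase then tends to copy the reduced base as if it were T. The small ribosomal subunit enters at the cap and scans the 5'UTR for a start codon, and upstream start codons, hairpins and terminal pyrimidine tracts in it set how often the main frame is translated.

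Each position carried 1 value per group, the column named diff, called the mismatch difference here and given in percent. The labels do not say which quantities it subtracts, no listed value was below 1.00%, and reads, depth and values per library are not given. No value therefore has a replicate error and no difference between the groups has a replicate check or a test. Intervals are at 95%, run over positions and cover counting error only. Positions of 1 gene are not independent of each other. A C absent from a table can be unmodified, below the threshold of the authors or not covered, and more reads of a transcript can lengthen its list. Of 12 stellate and myofibroblast markers 4 had a listed position in control and 8 after TGF-β1, while the 6 hepatocyte and 4 endothelial markers had none in either table, 1 of 4 cholangiocyte markers had 1 position in control, and 1 of 4 macrophage markers was listed in each table. COL1A2, DES, LRAT and RGS5 were in neither table, and as expression was not measured in these tables the identity of the cells could not be checked further.

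The bases around the 5'UTR cytidines could be read for those near a gene start. Windows of 300 bases around RefSeq gene starts (250 before, 50 after, GRCh38.p14) held 328 of the 1765 positions, 159 of the control and 209 of the TGF-β1 table. With the end column taken as the 1-based position and the strand as given, the base was C in all 159 and all 209. Of these, 129 and 159 were read in a window on their own strand, and 88 and 122 lay at or after the RefSeq gene start. The following 12 windows of 21 bases are shown because their cytidines are described below. The listed C is the capital letter, the letters are those of RefSeq, and each window is given 5′ to 3′ on the strand of the transcript. The first 6 were listed in both tables.

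ALDH1A3, chr15:100879879-100879899, plus strand: cgcctcgggcCagggagcgcg
CYBA, chr16:88651044-88651064, minus strand: gcaggggcggCagtgcgcgcc
RAB1B, chr11:66268616-66268636, plus strand: catcttggaaCgggaggcgga
DNAJA1, chr9:33025283-33025303, plus strand: ccagaacgctCggtgagaggc
RANGAP1, chr22:41286143-41286163, minus strand: gctggaagcgCgtgaggccgg
RPS3, chr11:75399531-75399551, plus strand: cggagcgcggCggcaagatgg

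The next 4 had some of the highest values of the control table and the last 2 of the TGF-β1 table, and none of these was in the other table.

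UCHL1, chr4:41256914-41256934, plus strand: tgggcggctcCgctagctgtt
B2M, chr15:44711502-44711522, plus strand: gtcgcgctggCgggcattcct
CAPRIN1, chr11:34051782-34051802, plus strand: acggagcgcgCgacactgccc
SDE2, chr1:225999317-225999337, minus strand: gcttgaggttCgggtagtcgg
PPP2R3C, chr14:35121963-35121983, minus strand: gaagctgctgCgcggaagtcg
DYNC1I2, chr2:171687761-171687781, plus strand: tttggaaagcCgcggagctgg

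Listed 5'UTR cytidines were followed by G more often than the other cytidines next to them. The following base was G at 89 of 155 control positions with both neighbours in the window (57.4%, Wilson interval 49.5 to 64.9) and at 125 of 201 TGF-β1 positions (62.2%, 55.3 to 68.6). Among the other cytidines within 15 bases it was G at 37.5% of 856 (34.3 to 40.8) and at 42.2% of 1078 (39.3 to 45.2). The following base was C at 8.39% of the control (4.97 to 13.8) and 9.95% of the TGF-β1 positions (6.53 to 14.9), against 26.9% (24.0 to 29.9) and 23.7% (21.3 to 26.4) of the neighbouring cytidines. In both tables these intervals do not overlap. The neighbouring cytidines can include bases before the RefSeq gene start, and whether those bases are transcribed was not tested. A listed C followed by G can be seen in the windows of RAB1B, DNAJA1, RANGAP1, RPS3, UCHL1, B2M, CAPRIN1, SDE2, PPP2R3C and DYNC1I2, and those of ALDH1A3 and CYBA are followed by A. The base before was G at 52.9% of control and 49.3% of TGF-β1 positions, against 43.6% and 50.8% of the neighbouring cytidines. That base was A at 15.5% and 22.9% (17.6 to 29.2), against 15.7% and 13.5% (11.5 to 15.6). It was T at 7.74% (4.48 to 13.0) and 11.4%, against 16.2% (13.9 to 18.9) and 12.7%. The intervals for a preceding A are apart after TGF-β1 only, and those for T in control only.

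CCG, with the acetylated C in the middle, is the sequence known for ac4C in ribosomal and transfer RNA. Read on the transcript strand, the listed C was the middle of CCG at 21 of 155 control positions (13.5%, 9.04 to 19.8) and at 22 of 201 TGF-β1 positions (10.9%, 7.34 to 16.0). The neighbouring cytidines were so placed at 9.81% (7.996 to 11.99) and 10.4% (8.70 to 12.4), with intervals that overlap those of the listed ones. GCG, which shares its CG with CCG, held 28.4% of control (21.9 to 35.9) and 29.4% of TGF-β1 positions (23.5 to 35.99), against 17.1% (14.7 to 19.7) and 22.7% (20.3 to 25.3) of the neighbouring cytidines. The intervals for GCG are apart in control and overlap after TGF-β1. On either strand CCG is present in 88.1% and GCG in 85.2% of all 35116 windows. Coding positions that fell in such windows were few. G followed 39.2% of 51 in control (27.0 to 52.9) and 50% of 92 after TGF-β1 (39.99 to 60.01), against 29.0% (24.1 to 34.4) and 36.7% (32.4 to 41.3) of the cytidines near them, with intervals that overlap in both tables. Only positions near a RefSeq gene start enter these values, so the bases around the remaining 5'UTR positions were not analysed here.

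After TGF-β1 more 5'UTR cytidines were listed, in step with the other parts of messenger RNA. The ratio of TGF-β1 to control positions was 1.46 in 5'UTRs, 1.48 in coding sequence and 1.37 in 3'UTRs. The 5'UTR thus held 9.87% of the control table (9.24 to 10.5) and 9.96% of the TGF-β1 table (9.43 to 10.5). The positions spread over 665 genes in control and 853 after TGF-β1, of which 261 were in both tables. Over the 1257 genes, the TGF-β1 table held more 5'UTR positions than the control table in 671, fewer in 433 and as many in 153. Of them 919 had a single 5'UTR position over both tables, and 864 (68.7%) also had a listed position in coding sequence, while 332 were listed through their 5'UTR alone.

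Most listed 5'UTR cytidines were not in both tables. Both tables listed 205 of them in 180 genes, which was 25.6% of the control positions (22.7 to 28.7) and 17.5% of the TGF-β1 positions (15.5 to 19.8). Over all segments 24.5% of control positions and 16.9% of TGF-β1 positions were shared. In coding sequence the shares were 26.0% (24.9 to 27.1) and 17.6% (16.8 to 18.4), and in 3'UTRs they were lower, 17.0% (14.8 to 19.4) and 12.4% (10.7 to 14.2). Of the 261 genes with 5'UTR positions in each table, 81 shared none. Of the 596 positions in control only, 51 (8.56%, 6.57 to 11.1) lay within 10 bases of a position of the TGF-β1 table, and of the 964 in the TGF-β1 table only, 62 (6.43%, 5.05 to 8.16) lay as close to one of control. The counts of genes that shared none and of near positions are not given for other segments. They cannot be read as particular to 5'UTRs.

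Such near neighbours are shown here for members of the gene lists. In LAMC1, a laminin chain of basement membranes, control listed a C at chromosome 1 position 183103366 with 2.22% and TGF-β1 one at 183103370 with 5.78%. The latter had a deposited p-value of exactly 0. An exact 0 was given at 6.62% of control and 8.64% of TGF-β1 5'UTR positions, and what it stands for is not stated. TIMP1, the inhibitor of matrix metalloproteinases, had 2.24% in control at chromosome X position 47582458 and 2.99% after TGF-β1 at 47582467. Somewhat farther apart, ACTN1, an actin crosslinker, had 2.11% in control at chromosome 14 position 68925622 and 1.45% after TGF-β1 at 68925643. Each of these cytidines was absent from the other table.

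The level of the 5'UTR cytidines was higher after TGF-β1, in the whole list and at the shared positions. The median mismatch difference was 4.12% in control (3.80 to 4.35, quartiles 2.58 and 7.31) and 4.66% after TGF-β1 (4.41 to 4.83, quartiles 2.93 and 8.13). Coding positions had 3.87% and 4.53%, and 3'UTR positions 5.15% and 5.71%. A value of at least 10% was listed at 101 control positions (12.6%) and 207 TGF-β1 positions (17.7%). The shares were 10.5% and 17.3% in coding sequence and 20.6% and 24.7% in 3'UTRs, so the rise was not particular to 5'UTRs. The median p-value of the authors' deposited tables was 0.000103 for control and 4.08e-06 for TGF-β1 5'UTR positions. Whether depth has a part in these differences was not tested.

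**Figure D1:**
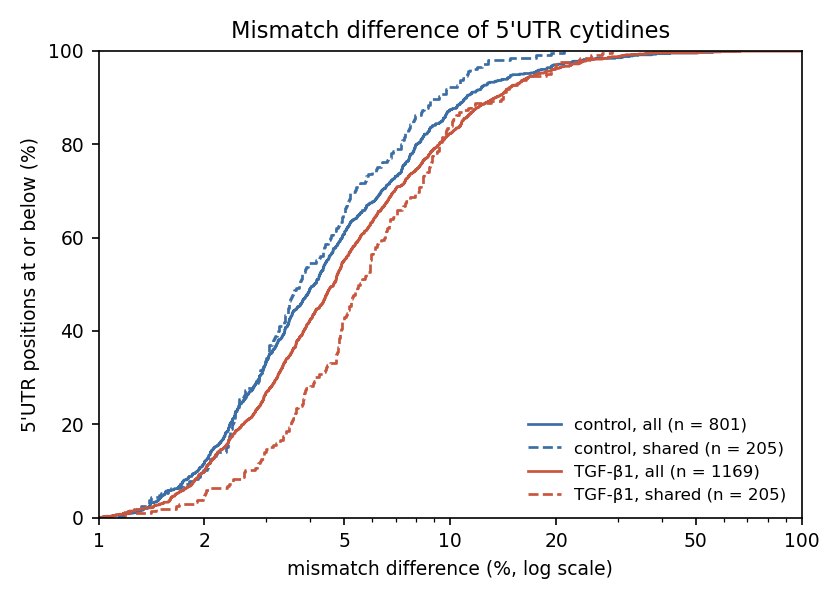
Cumulative share of 5'UTR positions (%) at or below a given mismatch difference (%, log axis), for control (blue) and TGF-β1 (red), with all listed positions as solid lines and the 205 shared positions as dashed lines. The solid lines lie close together, with medians of 4.12% and 4.66%, and the dashed lines are farther apart, with medians of 3.74% and 5.55%.

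Of the 205 shared 5'UTR cytidines 163 (79.5%, 73.5 to 84.5) had the higher mismatch difference after TGF-β1 and 42 the lower. Over shared positions of all segments 78.4% were higher, so the 5'UTR share is near the background. Medians were 3.74% without and 5.55% with TGF-β1, and the median of the paired differences, TGF-β1 minus control, was 1.45 percentage points (1.11 to 1.92). The median log2 ratio was 0.43 (0.32 to 0.63) in 5'UTRs and 0.60 (0.55 to 0.65) in coding sequence, with overlapping intervals. A value at least 2-fold higher after TGF-β1 was present at 50 positions (24.4%), against 27.7% of all shared positions, and one at least 2-fold lower at 5 (2.44%), against 1.66%. Low values in control were nearly all higher after TGF-β1, with 21 of 21 below 2%, while of those of 10% or more 10 of 16 were higher. As no value below 1.00% was listed, a shared position that was low in control had little room to be lower.

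**Figure D2:**
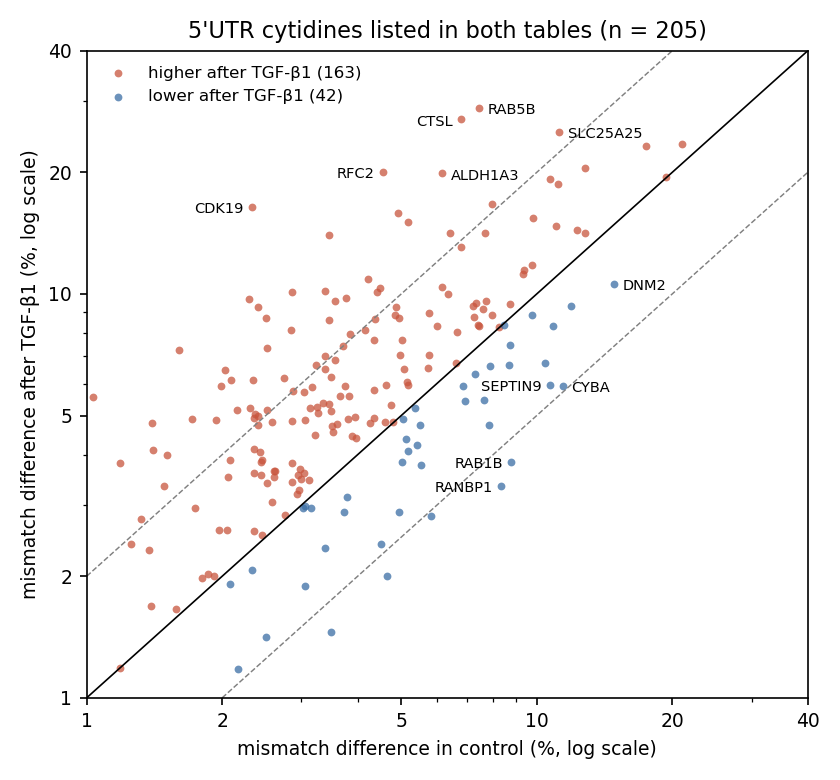
Mismatch difference after TGF-β1 against that in control (both %, log axes) at the 205 shared 5'UTR cytidines, 1 point per position, with the line of equal values (solid) and the 2-fold lines (dashed). The 163 red points lie above the solid line, and RAB5B, CTSL, RFC2 and CDK19 are among those farthest above it, while RAB1B and RANBP1 lie below the lower dashed line.

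The largest differences upward were in genes of varied function. At chromosome 12 position 55974120, which is 207 bases after the gene start, RAB5B, a small GTPase of early endosomes, had 7.46% in control and 28.9% after TGF-β1. CTSL, a lysosomal cysteine protease, had 6.78% and 27.0% at chromosome 9 position 87726243. In the authors' deposited tables the RAB5B position had p-values of 0.0012 and 0.00108, and that of CTSL 0.0329 and 1.14e-169. Both genes had 1 such cytidine in each table.

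RFC2, a subunit of the clamp loader of DNA replication, had 4.55% and 20.1% at chromosome 7 position 74254355. CDK19, a kinase of the Mediator complex, had 2.33% and 16.4%, the largest log2 ratio among these, 2.82. ACTL6A, an actin-related subunit of chromatin remodellers, had 3.46% and 13.98%. ALDH1A3, which makes retinoic acid from retinaldehyde, had 6.17% and 19.9% at the C shown above. SLC25A25, a mitochondrial carrier, had 11.2% and 25.2%, and ARHGEF1, an exchange factor of RhoA, had 4.93% and 15.9%. The C next to that of ARHGEF1 was shared too and differed the other way, with 8.65% and 6.69%. At the first-named positions of these 8 genes the value after TGF-β1 was between 13.98% and 28.9%, and the control value between 2.33% and 11.2%.

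Differences downward were smaller in percentage points. CYBA, the membrane subunit of NADPH oxidases, had 11.4% and 5.91% at a C 29 bases after the gene start. RAB1B, a GTPase of transport from the endoplasmic reticulum to the Golgi, had 8.78% and 3.84% at a C 36 bases after it. RANBP1, a Ran-binding protein, had 8.34% and 3.35%, and RANGAP1, which activates the GTPase of Ran, had 7.83% and 4.73%. Both act in the Ran cycle of nuclear transport, but not every listed C of theirs was lower. Another shared C of RANGAP1, 7 bases away, had 11.0% in control and 14.7% after TGF-β1, and another C of RANBP1 was listed after TGF-β1 alone with 19.6%.

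SEPTIN9, a septin of the cytoskeleton, had 10.7% and 5.95%, with a deposited p-value of exactly 0 after TGF-β1. DNM2, the dynamin of endocytic fission, had 14.8% and 10.6%, DNAJA1, a co-chaperone of HSP70, 10.4% and 6.76%, and SMTN, the smooth muscle protein smoothelin, 5.84% and 2.83%. A second shared C of SMTN had 4.93% and 8.72%. The 5 positions at least 2-fold lower were those of RAB1B, RANBP1, SMTN, NUP93 and PRSS3, of which the last 2 were picked after their values were seen. NUP93, a nuclear pore protein, had 4.65% and 1.997%. PRSS3, a trypsinogen with near-identical relatives among which reads may be divided, had 3.48% and 1.46%.

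In 53 genes a 5'UTR cytidine and a coding cytidine were each listed in both tables. The median log2 ratio was above 0 for both in 32 genes, for the 5'UTR alone in 6, for coding sequence alone in 13 and for neither in 2. Their median was 0.25 in the 5'UTR and 0.49 in coding sequence. Across these genes Pearson's r was 0.30 and Spearman's rho 0.26, as a description over 53 genes whose values all come from the same 2 tables.

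The highest 5'UTR values were listed in 1 table alone. In control AP1AR, a regulator of the AP-1 adaptor complex, had 64.9% at chromosome 4 position 112231833. UCHL1, a deubiquitinase, had 58.9%, B2M, the invariant chain of class I MHC molecules, 55.6%, and KIRREL1, an adhesion protein, 50.5%. CAPRIN1, an RNA-binding protein of stress granules, had 42.1%, SDE2, a genome maintenance protein, 38.5%, WWP2, a ubiquitin ligase, 37.5%, and CNOT8, a deadenylase, 34.2%. At the WWP2 position the deposited p-value was exactly 0. The cytidines of UCHL1, B2M, SDE2 and CNOT8 were 13, 3, 16 and 13 bases after the start of the nearest listed transcript.

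After TGF-β1 CBX3, a heterochromatin protein, had 100% at chromosome 7 position 26201549, while another of its cytidines had 5.13% in control. CCAR2, a nuclear regulator of transcription, had 66.7%, SFXN3, a mitochondrial carrier, 56.3% and RNH1, the ribonuclease inhibitor, 51.4%. At these 4 the deposited p-value was exactly 0. As reads are not given, an exact 0 cannot be read as stronger support for these values. PPP2R3C, a regulatory subunit of protein phosphatase 2A, had 37.7%, DYNC1I2, a dynein intermediate chain, 36.1% and CDH4, a cadherin, 35.9%. The cytidines of PPP2R3C and DYNC1I2 lay 1 and 16 bases after the nearest listed transcript start.

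A minority of the high values recurred in the other table. Of 24 control positions of 20% or more 1 was listed again (4.17%, 0.739 to 20.2), against 28.3% (22.1 to 35.5) of the 173 between 2% and 3%. The share was 19.5% (12.2 to 29.7) of the 77 between 10% and 20%, and 25.6% of all control 5'UTR positions. After TGF-β1 7 of 45 positions of 20% or more (15.6%, 7.75 to 28.8) were in control too. There it was 10.1% (6.60 to 15.01) of those between 2% and 3% and 17.5% of all TGF-β1 5'UTR positions. At 20% or more the intervals of control and TGF-β1 overlap. The control positions of 20% or more lay within 100 bases of the nearest listed transcript start in 15 of 24 cases (62.5%, 42.7 to 78.8), and the lower ones in 40.4% (37.0 to 43.9). After TGF-β1 the shares were 40% (27.0 to 54.5) and 38.3% (35.5 to 41.1). A p-value of exactly 0 accompanied 22.2% of the TGF-β1 positions of 20% or more and 8.10% of the lower ones.

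Although all positions are labelled 5'UTR, many lay far from the gene start on the genome. The median distance from the gene start was 1283 bases in control (943 to 1680) and 1100 after TGF-β1 (875 to 1383), and it counts introns and alternative promoters. The nearest was 2 bases after the start, in UBE2S, a ubiquitin-conjugating enzyme, with 1.18% in control and 1.19% after TGF-β1. As a share of the gene's span, 49.9% of control and 48.2% of TGF-β1 positions lay in the first 10%, and 78.8% and 80.5% in the first 50%. Counted from the nearest listed transcript start the control median was 166 bases (140 to 193), and 178 after TGF-β1 (156 to 211).

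The ratio between the tables varied with the distance from the gene start. Within 100 bases of it the control table listed 131 positions and after TGF-β1 there were 148 (ratio 1.13). From 100 up to 500 bases there were 160 and 306 (ratio 1.91), and this range held 19.97% of the control (17.4 to 22.9) and 26.2% of the TGF-β1 positions (23.7 to 28.8). Counted from the nearest listed transcript start the same range held 23.3% (20.5 to 26.4) and 25.3% (22.9 to 27.9), intervals that overlap, and the ratio within 100 bases was 1.36. The difference between ranges was not tested. Within 100 bases of the gene start the 37 shared positions had a median difference of 0.64 points (0.085 to 1.95), and those from 100 up to 500 bases 1.97 points (0.90 to 2.66).

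**Figure D3:**
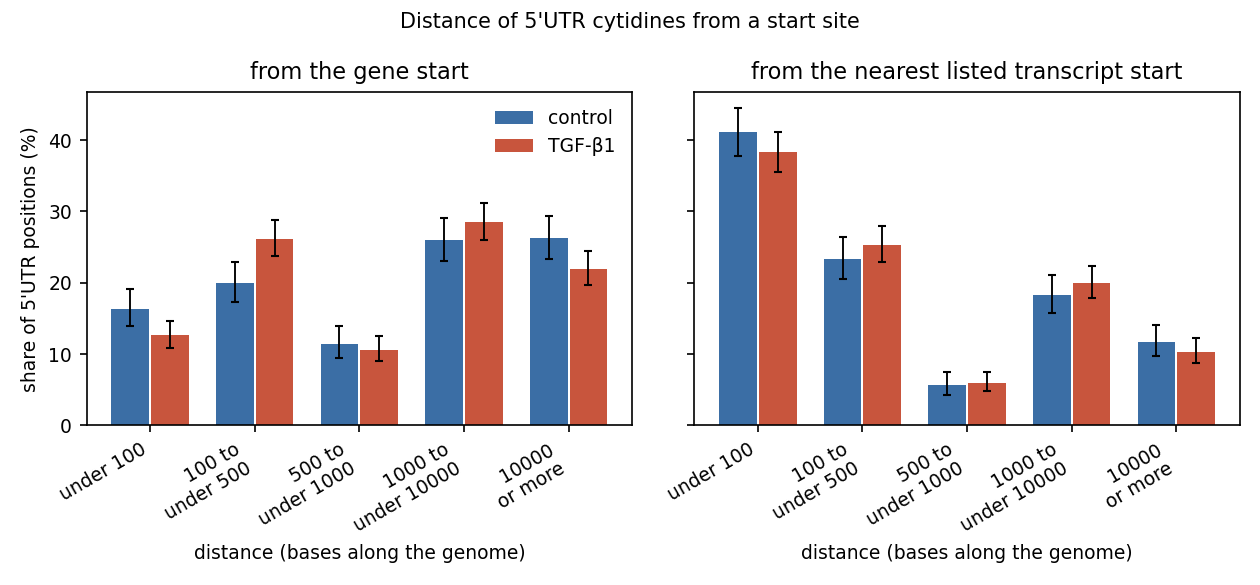
Share of the 5'UTR positions (%) in 5 ranges of distance (bases along the genome) from the gene start (left) and from the nearest listed transcript start (right), for control (blue) and TGF-β1 (red), with 95% Wilson intervals as bars. From the gene start the range of 100 up to 500 bases held 19.97% and 26.2%, and from the nearest transcript start 23.3% and 25.3%.

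A minority of the 5'UTR cytidines lay close to another. In control 13.9% (11.6 to 16.4) and after TGF-β1 16.3% (14.2 to 18.5) lay within 10 bases of another 5'UTR position of the same table, and 17 and 29 pairs were directly adjacent. Whether other segments differ in this was not tested. In the genes with most positions these spanned up to 18429 bases, in TCF25. HNRNPD, an RNA-binding protein that directs the decay of messenger RNA, had most, with 5 positions in control, 6 after TGF-β1 and 2 in both. At chromosome 4 position 82373785 its first shared C had 4.73% and 5.30%, and the second had 1.48% and 3.34% at position 82373877. Over all segments the gene had 8 and 12 listed positions.

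PACSIN3, which bends membranes in endocytosis, had 4 and 6 positions, and at its 3 shared cytidines the values were 1.94% and 4.87%, 1.86% and 2.03%, and 7.65% and 5.46%. SLC6A6, the taurine transporter, had 4 in each table. Its values at chromosome 3 position 14402631 were 11.9% in control and 9.31% after TGF-β1, at position 14402754 they were 3.13% and 5.22%, and at position 14402756 they were 5.01% and 3.84%. TCF25 had 3 and 4, and its 2 shared cytidines had 5.12% and 4.37%, and 2.61% and 3.52%. IRF3, the transcription factor of the interferon response, and SURF4, a cargo receptor of the endoplasmic reticulum, each had 1 in control and 4 after TGF-β1 with none shared. So within 1 gene the shared cytidines could differ in direction, as in PACSIN3, SLC6A6 and TCF25.

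Transcripts of ribosomal proteins start with a terminal oligopyrimidine (TOP) tract and have short 5'UTRs. Of 80 genes on the list 61 had a listed position in any segment. A 5'UTR position was present in 20 of these, beside 1257 of 5948 over all genes. The list had 16 such positions in the control and 29 in the TGF-β1 table. Of the 20 genes 12 had more, 6 fewer and 2 equal numbers, beside 671, 433 and 153 over all genes. The 5'UTR held 32.7% of the list's control positions (21.2 to 46.6) and 20.3% of those after TGF-β1 (14.5 to 27.6), against 9.87% and 9.96% over all genes. Their median mismatch difference was 3.34% and 3.27%, below the 4.12% and 4.66% of all 5'UTR positions. Ribosomal protein genes have many near-identical pseudogenes, and how the authors assigned such reads is not stated.

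RPS3, of the small subunit, had 1 and 5 positions, and its shared C, shown above with an ATG downstream of it, had 5.52% in control and 3.78% after TGF-β1. RPL13 had 1 and 4, and its shared C had 4.84% and 8.87%. RPL9 had 2 and 3, with 1.81% and 1.98% at one shared C and 5.36% and 5.205% at another. Of the 9 shared positions of the list 7 were higher after TGF-β1 (79.5% of all shared 5'UTR positions were).

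Other TOP messenger RNAs had 7 and 6 positions. They lay in 9 of 17 genes with any listed position (18 on the list), beside 1257 of 5948 over all genes. None of the positions was shared, beside 25.6% and 17.5% of all 5'UTR positions. The 5'UTR held 25% of the list's control positions (12.7 to 43.4) and 8.96% of those after TGF-β1 (4.17 to 18.2), against 9.87% and 9.96% over all genes. TPT1, the tumour protein translationally controlled by its TOP tract, had 0 and 2, at 17.6% and 23.4%. VIM, the intermediate filament vimentin, had 2 in control, at 2.06% and 7.996%, and 0 after TGF-β1. EEF1D, an exchange factor of elongation factor 1, had 1 and 2, the highest at 20.7% with a deposited p-value of exactly 0. RACK1, a scaffold on the small subunit, had 6.69% after TGF-β1 and NAP1L1, a histone chaperone, 5.13%, and neither had a 5'UTR position in control.

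Translation initiation factors had 5 and 15 positions. These were in 9 of 32 genes with any listed position (39 on the list), beside 1257 of 5948 over all genes. Of the 9 genes 7 had more and 2 fewer, and over all genes 671 had more, 433 fewer and 153 as many. Over all segments the list had 43 and 103 positions, and the 5'UTR held 11.6% (5.07 to 24.5) and 14.6% (9.03 to 22.6) of them, with intervals that contain the 9.87% and 9.96% of all genes. EIF3B, a core subunit of eIF3, had 1 and 4, with 3.05% and 3.61% at its shared C. EIF3K had 0 and 2, EIF4H, which assists the helicase eIF4A, 0 and 2, and EIF5A, the hypusinated factor, 0 and 2. EIF4EBP1, which holds back the cap-binding protein eIF4E, had 2 and 1, at 13.0% and 4.35% in control, and the second was 4.92% after TGF-β1. All 3 shared positions of the list were higher after TGF-β1, beside 79.5% of all shared 5'UTR positions, and its median value was 4.35% in control and 3.97% after TGF-β1.

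**Figure D4:**
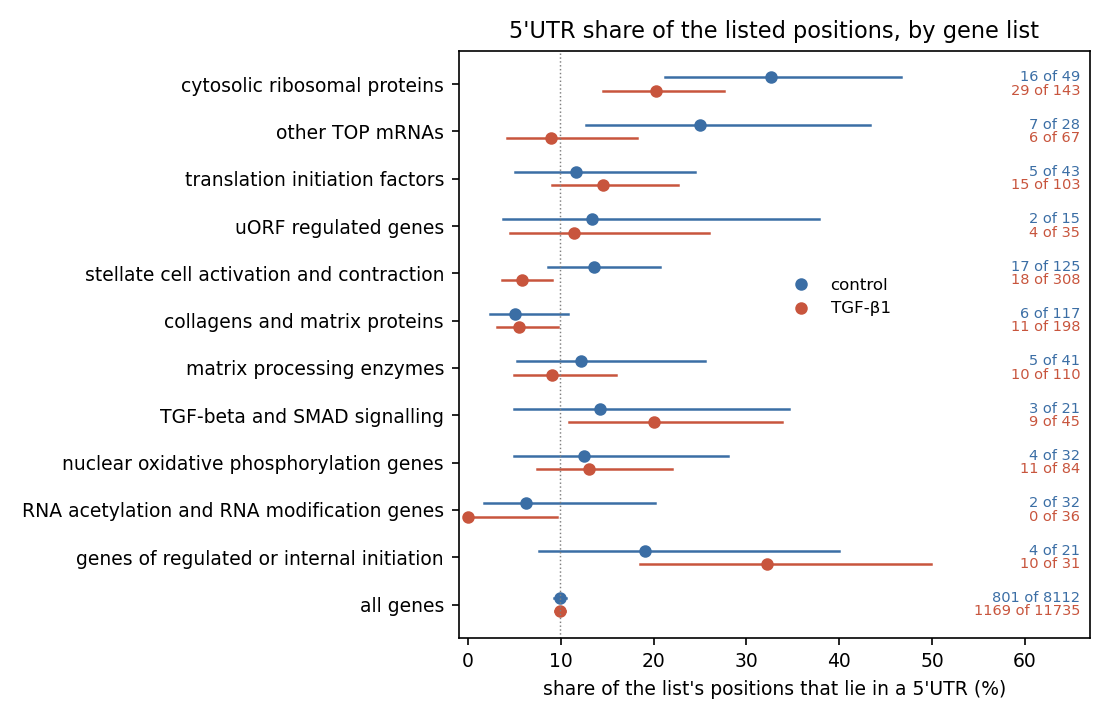
Share (%) of each gene list's listed positions that lie in a 5'UTR, for control (blue) and TGF-β1 (red), with 95% Wilson intervals as lines and the numbers of positions at the right. The dotted line is the 9.87% of all genes in control, and the cytosolic ribosomal proteins lie above it in both tables, at 32.7% and 20.3%; the list of iron responsive element genes, with 3 and 5 positions in all, is not drawn.

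On the list of genes controlled by upstream open reading frames 16 of 27 had a listed position in any segment and 4 of these had one in the 5'UTR, beside 1257 of 5948 over all genes. In the 5'UTR lay 2 of the list's 15 control positions (13.3%, 3.74 to 37.9) and 4 of the 35 after TGF-β1 (11.4%, 4.54 to 25.95), with intervals that contain the shares of all genes. SLC35A4, whose upstream frame is translated under stress, had 9.30% in control and 11.2% after TGF-β1. CEBPB, a leucine zipper transcription factor, had 0 and 2 positions at 4.82% and 7.69%, SAT1, a polyamine acetylase, 10.5% in control alone, and ODC1, the first enzyme of polyamine synthesis, 2.99% after TGF-β1 alone. Both CEBPB positions had a deposited p-value of exactly 0. Of 7 genes with iron responsive elements in the 5'UTR, FTL, the light chain of ferritin, had 7.18% after TGF-β1 at a C 49 bases after the gene start, and the others had none.

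Genes with 5'UTRs known for regulated or internal initiation had 4 and 10 positions. These were in 5 of 11 genes with any listed position (20 on the list), beside 1257 of 5948 over all genes. HSPA5, the chaperone BiP of the endoplasmic reticulum, had 1 and 3, and its shared C at chromosome 9 position 125241207 had 5.18% and 15.04%. VEGFA, the endothelial growth factor, had 1 and 3 with none shared, between 2.63% and 4.51%. CCND1, cyclin D1, had 2 and 0, at 1.89% and 2.44%. The 5'UTR held 19.0% of this list's control positions and 32.3% of those after TGF-β1 (18.6 to 49.9), against 9.87% and 9.96% over all genes.

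Genes of stellate cell activation and contraction had nearly equal numbers of 5'UTR positions, 17 in control and 18 after TGF-β1, while their positions over all segments numbered 125 and 308. The 5'UTR held 13.6% of the list's positions in control (8.67 to 20.7) and 5.84% after TGF-β1 (3.73 to 9.05). The first interval contains the 9.87% of all genes, and the second lies below their 9.96%. The 5'UTR positions were in 16 of 40 genes with any listed position (44 on the list), beside 1257 of 5948 over all genes. Of the 16 genes 7 had more, 4 fewer and 5 equal numbers, beside 671, 433 and 153 over all genes. Of 6 shared positions 5 were higher, beside 79.5% of all shared ones. The median value of the list's 5'UTR positions was 2.96% without and 4.86% with TGF-β1. The difference between the tables was not tested.

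PXN, the focal adhesion adaptor paxillin, had 3 and 1, with 2.62% and 3.65% at its shared C. ACTN1 had 1 and 2, and ZYX, the adhesion protein zyxin, 2 and 2, with 2.96% and 3.27% at its shared C. MYH9, the nonmuscle myosin heavy chain, had 1 in each table at different cytidines, 1.91% in control and 14.5% after TGF-β1. CNN1, calponin, likewise had 2.92% and 11.7% at different cytidines, both with a deposited p-value of exactly 0.

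Collagen and matrix protein genes had 6 and 11 5'UTR positions. They lay in 10 of 31 genes with any listed position (40 on the list), beside 1257 of 5948 over all genes. Of the 10 genes 7 had more, 2 fewer and 1 an equal number, beside 671, 433 and 153 over all genes. Over all segments the list had 117 and 198 positions, of which the 5'UTR held 5.13% (2.37 to 10.7) and 5.56% (3.13 to 9.67). Only the second interval lies below the share of all genes. COL4A2, a basement membrane collagen chain, had 1 and 2, with 4.59% and 4.83% at its shared C. TNC, tenascin C, had 3 in control, at 6.24%, 4.86% and 6.56%, and 0 after TGF-β1. TGFBI, a matrix protein induced by TGF-β, and MFGE8, a secreted glycoprotein, each had 0 and 2. The median value was 4.73% in control and 3.13% after TGF-β1.

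Matrix processing enzymes had 5 and 10 positions. These were in 8 of 23 genes with any listed position (39 on the list), beside 1257 of 5948 over all genes. Of the 8 genes 4 had more, 1 fewer and 3 equal numbers, beside 671, 433 and 153 over all genes. In the 5'UTR lay 12.2% (5.32 to 25.5) and 9.09% (5.01 to 15.9) of the list's 41 and 110 positions, with intervals that contain the shares of all genes. CTSL is described above. P4HB, which forms part of collagen prolyl hydroxylase, had 1 and 3, with 7.71% and 9.63% at its shared C. TGM2, the matrix-crosslinking transglutaminase, had 0 and 2, at adjacent cytidines with 4.49% and 4.26%. LOXL2, a lysyl oxidase, had 2.80% and 11.5% at different cytidines, the second with a deposited p-value of exactly 0. The list's median was 2.82% without and 8.30% with TGF-β1.

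Genes of TGF-β and SMAD signalling had 3 and 9 positions, out of 21 and 45 over all segments. The 5'UTR positions were in 5 of 20 genes with any listed position (39 on the list), beside 1257 of 5948 over all genes. None of the 3 control positions was shared, beside 25.6% of all control 5'UTR positions. In the 5'UTR lay 14.3% (4.98 to 34.6) and 20% (10.9 to 33.8) of the list's positions, against 9.87% and 9.96% over all genes. TGFB1, the gene of the ligand itself, had 2 in control, at 8.36% and 4.78%, and 3 others after TGF-β1, at 3.56%, 1.82% and 3.02%. They lay between 58 and 460 bases after its gene start. JUNB, an AP-1 transcription factor, had 0 and 4, between 2.36% and 5.36%. TGFB2 had 4.75% and ENG, the co-receptor endoglin, 4.20%, both after TGF-β1 alone, and SMAD5, a transducer of BMP signals, 12.5% in control alone. The receptor genes TGFBR1 and TGFBR2 had no 5'UTR position.

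Nuclear genes of oxidative phosphorylation had 4 and 11 positions. They lay in 12 of 44 genes with any listed position (65 on the list), beside 1257 of 5948 over all genes. Of the 12 genes 9 had more, 2 fewer and 1 an equal number, beside 671, 433 and 153 over all genes. NDUFB2, of complex I, had 1 and 2, with 5.08% and 6.53% at its shared C, and ATP5MC2, of the ATP synthase, had 3.93% and 2.19% at different cytidines. NDUFA8, also of complex I, had 9.35%, COX5A, of cytochrome c oxidase, 9.24%, and UQCRQ, of complex III, 4.49%, all after TGF-β1 alone. The 5'UTR held 12.5% and 13.1% of the list's positions, with intervals that contain the 9.87% and 9.96% of all genes.

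Genes of RNA acetylation and modification had 2 and 0 positions, out of 32 and 36 positions in all. These were in 2 of 21 genes with any listed position (31 on the list), beside 1257 of 5948 over all genes. The 2 positions were in YTHDC1, a nuclear reader of m6A, at 4.71%, and in ADARB1, an adenosine deaminase, at 3.18%. NAT10 and its adaptor THUMPD1 had no 5'UTR position in either table.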

How the data were processed

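Polyadenylated RNA of 4 LX-2 libraries was treated with NaBH4 and sequenced, per the labels. The submitters' processing notes name build hg38 and the tools STAR 2.7.6a, featureCounts and fastp 0.23.1 without their roles. How positions were called and filtered, and how replicates were joined, is not given in the sources used here. Each group has 1 table deposited by the authors, whose diff column holds a fraction between 0 and 1, printed here in percent, and whose p-value column is below 0.05 throughout in the deposited tables. Rows were merged by position and kept where the first row named a 5'UTR. All rows of a position carried the same segment, so a rule of any or every row keeps the same positions. A position counts for the gene on its first row.

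Medians have order-statistic intervals and shares Wilson intervals, both at 95% and over positions, which cover counting error only. With 1 value per group no test between groups was made, and the model per library could not be fitted. Named positions followed 5 parts: the largest differences among shared positions, the highest values listed in 1 table, the genes with most positions, members of the 12 gene lists, and a subset of these for printed sequences. The members, lists and alternatives were chosen with earlier results of these data known. Sequences are RefSeq windows of GRCh38.p14. Python 3.11.15 with pandas 2.3.3, numpy 2.4.6 and scipy 1.17.1 was used, and the functions were tested on simulated data. A few named positions are left out of the text and not reported here.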

Additional observations from a re-analysis of the deposited data

How the results depend on the processing

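The majority of shared 5'UTR positions was higher after TGF-β1 under each alternative run, between 73.3% and 82.8% of them, and of 132 alternative values 111 moved by less than their interval or 1.5 times. Some of the 111 could not move. The rules of any and every row keep the same positions, and the rule of equal length leaves the control table whole. With p under 0.001 the control table's 5'UTR share was 10.8%, the median mismatch difference 4.56% in control and 4.92% after TGF-β1, and the control share within 100 bases of the gene start 19.1%, and 13.6% of TGF-β1 positions were shared. With values of at least 5% the medians were 8.18% and 8.67% by construction, 19.0% of control and 11.4% of TGF-β1 positions were shared (25.6% and 17.5% as reported), and 7.62% of TGF-β1 positions lay in the gene lists. With tables of equal length 20.3% of control positions were shared and the TGF-β1 median was 4.92%. Within 50 bases of the gene start lay 7.74% and 4.36% of positions, within 500 bases 36.3% and 38.8%, and within 100 of the nearest listed transcript start, chosen after seeing the data, 41.1% and 38.3%. Counted as the first C of CCG in place of the middle one, the listed shares were 6.45% (3.54 to 11.5) and 5.97% (3.45 to 10.1). Neighbouring cytidines had 10.9% (8.95 to 13.1) and 11.0% (9.30 to 13.0), with intervals that overlap those of the listed ones. No paired analysis was possible because the tables hold 1 value per group, and leaving out a replicate could not be run for the same reason. Depth is unknown, so presence or absence in a table cannot be read as a change.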

Other observations

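The 5'UTR positions were spread unevenly over chromosomes. Chromosome 19 had 73 without and 172 with TGF-β1 (ratio 2.36), beside 2.25 for positions of all segments on that chromosome. On chromosome 4 there were 31 and 22 (ratio 0.71, beside 1.01 for all segments), on chromosome X 29 and 27 (0.93 beside 1.23), and on chromosome 14 22 and 44 (ratio 2, beside 1.28). The nearest to a gene start after UBE2S were in POLR3K, a subunit of RNA polymerase III, 5 bases after it with 6.54% after TGF-β1, in RPL37, 6 bases after it with 7.69% in control, and in PGAM1, a glycolytic mutase, 9 bases after it with 14.7% after TGF-β1, 3 genes chosen after their values were seen.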
